A study of Homo sapiens with 6 samples.

Results

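The comparison of all-trans retinoic acid (ATRA) with its solvent DMSO in K562 cells is described here across all genes, from the arrays of experiment 1 (ATRA) and experiment 2 (DMSO). The arrays were chosen by their labels alone, and 4 of the 6 arrays of the series belong to the comparison. K562 is a human line grown from a chronic myeloid leukaemia, and every array measured total RNA from it. Each experiment held 1 sample nucleofected with a small interfering RNA, which the labels call RNAi8, and 1 sample nucleofected with a scrambled RNA, each at up to 200 nM. ATRA or DMSO was added 24 hours later, and the time under ATRA is not given in the sources used here. All cells of the comparison therefore carried transfected RNA, and no untransfected or untreated cells were used.

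Each ATRA array was matched with the DMSO array of the same RNA, which gave 2 pairs. All ATRA arrays of the comparison came from experiment 1 and all DMSO arrays from experiment 2, so the treatment and the experiment cannot be told apart. The p-values and standard errors (SE) rest on the spread between these 4 arrays only, in each gene and, by moderation, over all genes. The 2 arrays of a treatment carried different RNAs within 1 experiment and are not replicates of the treatment. The other 2 arrays, from experiment 3 (ATRA), served as a check of direction and were compared with the same DMSO arrays.

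Retinoic acid binds the retinoic acid receptors RARA, RARB and RARG, which sit on DNA as partners of the retinoid X receptors. Without ligand the pair holds corepressors, and with ligand it recruits coactivators and the nearby gene is transcribed. The classic binding site is a direct repeat of a short half-site with a gap of 5 bases. The genes best known to answer include CYP26A1, whose enzyme degrades retinoic acid, RARB itself and HOX genes. In acute promyelocytic leukaemia ATRA drives granulocytic maturation, whereas K562 cells carry the BCR-ABL1 fusion and have erythroid and megakaryocytic features.

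The promoters of CYP26A1 and RARB are shown because both hold this repeat, while only the CYP26A1 transcript passed the test described next. Each window runs from 250 bases before to 50 bases after a transcript start, on the + strand of GRCh38.p14, from RefSeq. Capitals mark the direct repeat.
CYP26A1, chr10:93073643-93073942: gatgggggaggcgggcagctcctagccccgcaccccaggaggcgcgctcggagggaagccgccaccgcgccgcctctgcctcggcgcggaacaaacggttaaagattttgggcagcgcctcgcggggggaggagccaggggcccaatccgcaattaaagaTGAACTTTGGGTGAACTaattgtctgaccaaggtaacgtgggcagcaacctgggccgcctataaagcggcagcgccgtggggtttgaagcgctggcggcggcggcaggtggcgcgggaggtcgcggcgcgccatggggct
RARB, chr3:25428013-25428312: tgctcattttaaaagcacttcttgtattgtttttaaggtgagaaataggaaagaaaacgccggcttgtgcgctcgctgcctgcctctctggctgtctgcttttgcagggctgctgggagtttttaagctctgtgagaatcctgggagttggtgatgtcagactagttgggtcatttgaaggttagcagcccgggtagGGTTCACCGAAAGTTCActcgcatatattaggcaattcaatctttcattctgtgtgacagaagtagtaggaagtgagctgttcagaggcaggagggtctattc
Of the windows of each gene, 1 of 2 for CYP26A1 and 1 of 4 for RARB holds the repeat. That of CYP26A1 lies 90 to 74 bases upstream of the start, and read on the other strand it is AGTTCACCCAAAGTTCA. That of RARB, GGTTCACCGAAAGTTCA, lies 53 to 37 bases upstream. The half-site AGGTCA was searched on both strands. So were its variants, of which AGTTCA and the form GGTTCA occur in the repeats shown here, and a further variant was GGGTCA. Any of these counted as either part of a repeat, and overlaps with other motifs were not removed. A repeat at a spacing of 5 was held by 31 of 35116 RefSeq promoter windows (0.0883%), one at a spacing of 1 by 46 (0.131%) and one at a spacing of 2 by 14 (0.0399%), while 38.6% held at least 1 half-site.

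CYP26A1 had the largest difference of all genes that passed the test. Its log2 level was 11.46 (siRNA) and 11.21 (scrambled) under ATRA, against 5.75 and 5.72 under DMSO. Both ATRA arrays stood far above both DMSO arrays, which gave signals under 5.99, the median over all probe sets. Genes under that median are called dim here, since the arrays do not show such transcripts to exceed background, and a difference from a dim level is one in signal. The difference was 5.60 ± 0.07 (SE, 2 arrays against 2), a 48.4-fold difference in signal (limma, adjusted p = 4.2e-05).

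ABCA1, the transporter that exports cholesterol from cells, came next. Its log2 level was 9.24 and 9.27 under ATRA and 5.62 and 5.72 under DMSO. Again the groups were far apart, from a dim DMSO level. The difference was 3.58 ± 0.06 (SE), or 11.95-fold in signal (adjusted p = 0.000123). A second ABCA1 probe set differed by 3.47, and the remaining ones, of low signal, by 0.17 and 0.05, so that the mean of all ABCA1 probe sets differed by 1.82.

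PDK4, a kinase that switches off pyruvate dehydrogenase, was at 8.14 and 8.24 under ATRA and at 5.31 and 5.62 under DMSO. It differed by 2.73 ± 0.08 (SE), or 6.63-fold in signal (adjusted p = 0.000876), from a dim level. The other PDK4 probe sets were dim and differed by 0.20 and 0.43, and the mean of all of them differed by 1.12.

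NMU encodes neuromedin U, a secreted neuropeptide, and was abundant in both treatments. Its log2 level was 13.02 and 12.92 under ATRA and 11.99 and 11.91 under DMSO. The groups did not overlap, and the pairs differed by 1.03 and 1.01. NMU was the 1 called of 13 genes of neuropeptide signalling. The difference of 1.02 ± 0.02 (SE) was 2.02-fold (adjusted p = 0.000272).

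**Figure D1:**
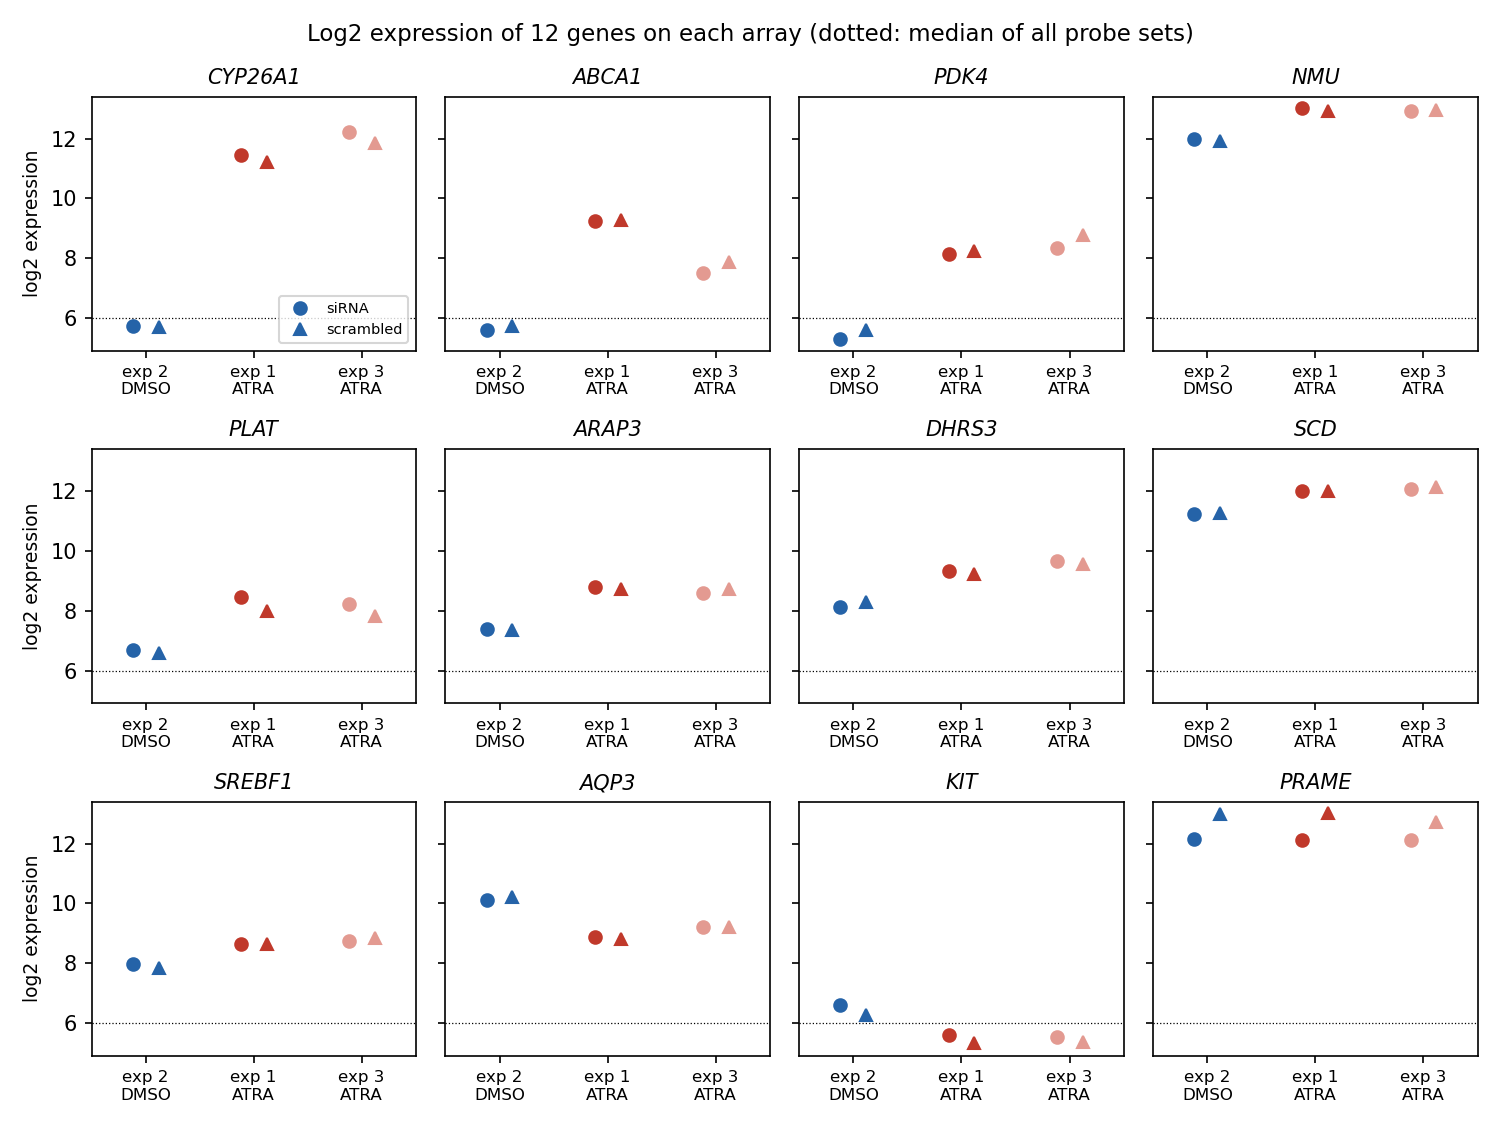
Log2 expression (vertical axis) of named genes on each of the 6 arrays, by experiment and treatment, with circles for the siRNA and triangles for the scrambled RNA. CYP26A1, ABCA1 and PDK4 lie below the dotted line, the median of all probe sets (5.99), under DMSO and above it in both ATRA experiments, whereas PRAME separates by RNA and not by treatment.

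PRAME, a cancer-testis antigen that represses retinoic acid receptor signalling and is the subject of the series, separated the arrays by transfected RNA. Its log2 level was 12.13 with the siRNA and 13.005 with the scrambled RNA under ATRA, and 12.14 and 12.99 under DMSO. The difference between treatments was 0.00, with a 95% interval of -0.06 to 0.06. Of the genes listed as markers of K562, 11 of 15 were measured and none of them was dim. The embryonic globin gene HBZ lay between 11.97 and 12.31 and the erythroid factor GATA1 between 8.93 and 9.16, so the labelled cell type was borne out by its transcripts.

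Over all 19775 genes, 132 passed the test at an adjusted p below 0.05, which is 0.668% of the genes tested (limma with an intensity trend and the RNA as a covariate). Of these, 101 (0.511%) were higher and 31 (0.157%) lower with ATRA, and 2937 genes (14.9%) had an unadjusted p below 0.05. The called genes differed by a median of 0.58 upward and -0.48 downward, and differences of at least 1 log2 unit were few, with 8 genes higher and 2 lower. Of the genes called higher, 8 were dim under DMSO, and KIT and TRDN, called lower, were dim under ATRA. The groups did not overlap for any called gene, but that also held for 8502 of all genes (43%). An exact permutation test of 2 arrays against 2 cannot give a p below 0.333. The shares over all genes given here apply to every list count below. Members of these lists were chosen with earlier results of these data known.

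The count of called genes depended on the setting. A fit of 6 arrays in which the experiment number was a random replicate block left 2 genes, CYP26A1 (adjusted p = 0.00656) and PDK4 (adjusted p = 0.0351), and without any 1 of the 4 arrays, each in turn, 0 passed, with 1810 to 2902 genes at an unadjusted p below 0.05. Quantile normalization of the 4 arrays on top of the deposited values gave 1330 calls, 56.9% of them higher, against 76.5% as deposited. The moderation of variances in limma added 11.96 degrees of freedom in that fit and 4.35 as deposited. The part of this in the count was not tested.

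**Figure D2:**
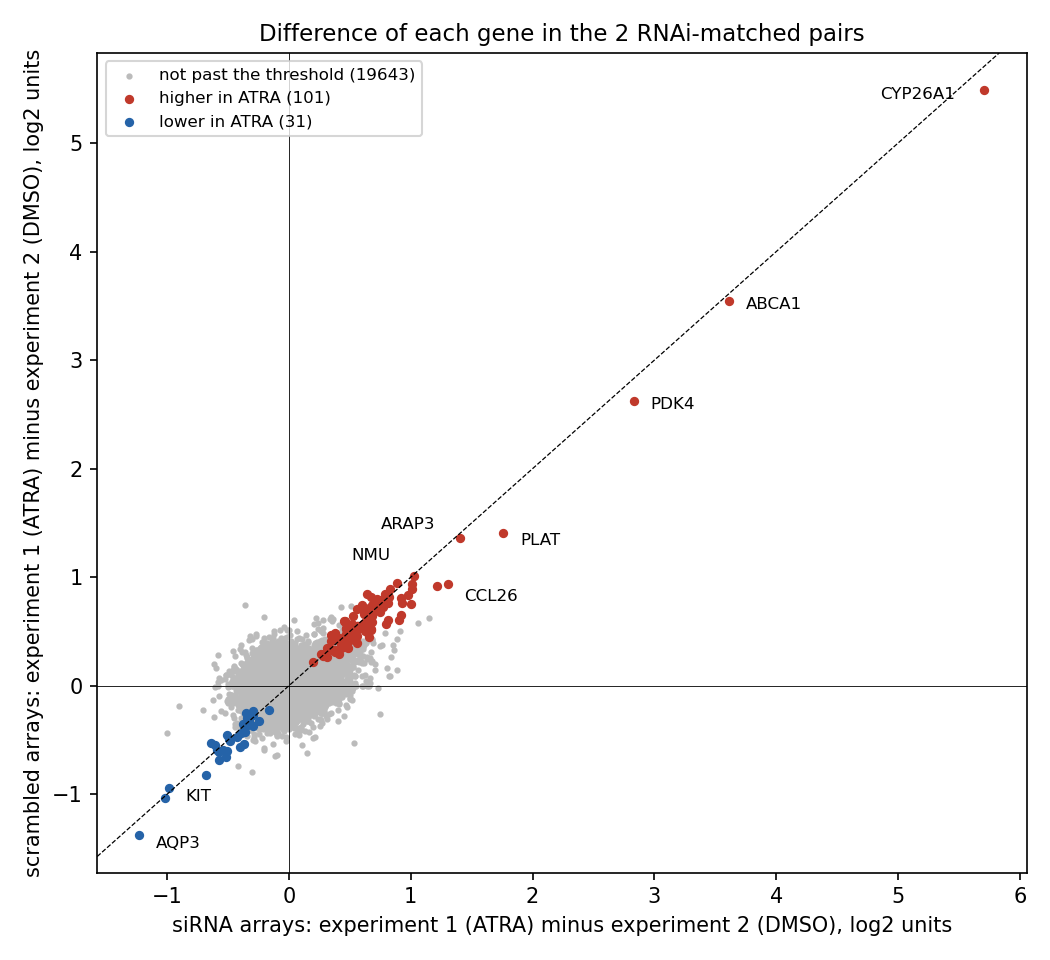
Difference of each of 19775 genes, ATRA minus DMSO in log2 units, in the siRNA pair (horizontal axis) and the scrambled pair (vertical axis); red and blue points passed the test, and the dashed line marks equal differences. CYP26A1, ABCA1 and PDK4 lie far from the bulk of genes, and the called points lie near the line.

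Among the genes that make, bind and break down retinoids, 22 were measured. Of these, 2 were higher and 0 lower, against 0.511% and 0.157% of all genes. Besides CYP26A1 this was DHRS3, a reductase that turns retinaldehyde back into retinol. DHRS3 was at 9.34 and 9.22 under ATRA and at 8.12 and 8.30 under DMSO, a difference of 1.07 ± 0.08 (SE, adjusted p = 0.0165). The list as a whole had a median difference of -0.01, as had all genes tested. ALDH1A2, a retinaldehyde dehydrogenase that makes retinoic acid, differed by -0.26 (adjusted p = 0.138), and FABP5, which carries retinoic acid to the nucleus, by -0.13 (adjusted p = 0.166). Neither passed the test. ALDH1A1, a dehydrogenase of the same family, was dim.

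Of the retinoid receptors and their cofactors, 0 of 17 passed in limma, with 3 at an unadjusted p below 0.05. RARA was at 7.66 and 7.43 under ATRA and at 7.66 and 7.66 under DMSO, a difference of -0.11 with an interval of -0.31 to 0.08. RARG differed by -0.06, with an interval of -0.22 to 0.11. RARB, whose promoter repeat is printed above, was dim on all 4 arrays (5.78 and 5.77 against 5.89 and 5.76), and its remaining probe sets were dim as well. The coactivator NCOA2 differed by 0.24 and did not pass (adjusted p = 0.165).

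A list of genes known from other cells as induced by retinoic acid was drawn up with earlier results of these data known. Its counts are therefore a description only. It gave 6 higher and 0 lower of 23 measured, against 0.511% of all genes called higher, with a list median of 0.10. The 6 were CYP26A1, DHRS3 and ABCA1, along with PLAT, THBD and TRIB1. TRIB1, a pseudokinase that guides degradation of C/EBP factors, was at 9.53 and 9.58 under ATRA and at 8.80 and 8.83 under DMSO, a difference of 0.74 ± 0.05 (SE, adjusted p = 0.0133). The TRIB1 probe set was the only one of its gene above the dim range. Other members of the list, such as RARB, RARRES1, CEBPE and ICAM1, did not pass the test and differed by -0.05, -0.15, -0.11 and -0.18. Of the 23, 13 lay above 0 and 10 below. In limma 11 had an unadjusted p below 0.05, 10 of them above 0 and 1 below, against 14.9% of all genes.

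Transcription factors of the HOX family pattern the body axis and are expressed along blood cell maturation. They gave 2 higher and 0 lower of 30 measured, against 0.511% and 0.157% of all genes. HOXB3 was at 10.34 on both ATRA arrays and at 9.73 and 9.77 under DMSO, a difference of 0.59 ± 0.04 (SE, adjusted p = 0.0148). Its second probe set, of low signal (6.17), differed by -0.09. HOXB2 differed by 0.29 ± 0.04 (SE, adjusted p = 0.049) and so lay close to the threshold. HOXB4 differed by 0.24 and did not pass (adjusted p = 0.115).

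Of 109 called genes with a RefSeq window, 39 (35.8%) held at least 1 half-site, as did 41.7% of all tested genes with a window. CYP26A1 was the 1 called gene with a repeat at a spacing of 5, which 15 of 15384 tested genes held, and 0 held one at a spacing of 1 or 2. No test of these shares was made. The windows of ABCA1, PDK4 and NMU held 1, 2 and 2 half-sites and no repeat at that spacing. These letters describe the window only.

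The liver X receptors respond to oxidised cholesterol and switch on genes of lipid handling. Of 18 genes of this pathway and of lipid transport, 4 were higher and 0 lower, against 0.511% and 0.157% of all genes, with a median of 0.10. These members too were chosen with earlier results of these data known, so the counts are a description only. SCD, the desaturase that makes oleic acid, was at 12.004 and 11.999 under ATRA and at 11.23 and 11.28 under DMSO, a difference of 0.75 ± 0.03 (SE, adjusted p = 0.00348). All of its probe sets differed by 0.70 to 0.83. SREBF1, a transcription factor for fatty acid synthesis, differed by 0.75 ± 0.06 (SE, adjusted p = 0.0195), and its other probe set by 0.20. MYLIP, a ubiquitin ligase that degrades the LDL receptor, differed by 0.42 ± 0.05 (SE, adjusted p = 0.0444). Within this list ABCG1, a sterol exporter like ABCA1, was dim under DMSO and differed by 0.10, and FASN, the fatty acid synthase, differed by 0.20 (adjusted p = 0.218). Neither of them passed.

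Further lipid genes among the called ones were picked for the text after their values were seen. ACSL1, which activates long fatty acids, was at 10.31 and 10.35 under ATRA and at 9.56 and 9.67 under DMSO, a difference of 0.72. PLIN2, a coat protein of lipid droplets, differed by 0.64 and ACACA, the enzyme that makes malonyl-CoA, by 0.61. ELOVL5, an elongase, differed by 0.36, and the acid ceramidase gene ASAH1 by 0.50. TMEM135, a protein of peroxisomes and mitochondria, was at 10.55 and 10.53 against 9.73 and 9.72, a difference of 0.82 ± 0.04 (SE, adjusted p = 0.00528). On the mean of all probe sets of a gene, SREBF1 (0.47), MYLIP (0.28), PLIN2 (0.37), ELOVL5 (0.24), ASAH1 (0.31) and TMEM135 (0.38) no longer passed, whereas ABCA1, SCD, ACSL1 and ACACA did.

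Genes of cholesterol synthesis gave no higher call. Of 16 members measured, 0 were higher and 1 was lower, with a median of -0.08, and 13 of the 16 lay below 0. The called gene was MSMO1, a sterol demethylase, at 7.81 and 7.65 under ATRA and 8.31 and 8.26 under DMSO (-0.56 ± 0.06 SE, adjusted p = 0.0385). HMGCS1, an early enzyme of the pathway, differed by -0.33 (adjusted p = 0.0626), and INSIG1, which restrains it, by 0.20 (adjusted p = 0.154).

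Of 19 genes of pyruvate dehydrogenase and its control, PDK4 was the 1 gene called higher and 0 were lower, and the list median was 0.07. Of the 19, 9 had an unadjusted p below 0.05, with 7 above 0 and 2 below, against 14.9% of all genes. The other kinases, PDK1 (-0.10), PDK2 (-0.09) and PDK3 (0.09), did not pass, and their intervals ran from -0.40 at the lowest to 0.27 at the highest. FOXO1, a transcription factor known to act on PDK4, was at 6.69 and 6.73 under ATRA and at 6.15 and 6.36 under DMSO, a difference of 0.45 (adjusted p = 0.0993). Its other probe sets, 1 of them of much the same signal, each differed by 0.10, and the mean of all by 0.22. Among glycogen genes, 1 of 22 was higher and 0 lower. This was PPP1R3B, which brings protein phosphatase 1 to glycogen, at 7.62 and 7.24 against 6.61 and 6.35 (0.95 ± 0.07 SE, adjusted p = 0.0154). Its other probe sets were dim and differed by 0.10 and -0.20, and their mean with it (0.29) did not pass.

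PLAT, the tissue plasminogen activator, was at 8.46 and 8.002 under ATRA and at 6.70 and 6.60 under DMSO, a difference of 1.58 ± 0.10 (SE, adjusted p = 0.0126), or 3.00-fold. THBD, thrombomodulin, differed by 0.71 ± 0.07 (SE, adjusted p = 0.0288) from a dim DMSO level. PROCR, the endothelial protein C receptor, which works with thrombomodulin, was instead lower, by -0.39 ± 0.04 (SE, adjusted p = 0.0394). The list of plasminogen activation and thrombomodulin thus had 2 genes higher and 1 lower of 14, with a median of 0.10. Over all genes 0.511% were higher and 0.157% lower.

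CCL26, a chemokine that attracts eosinophils, was at 6.89 and 6.47 against a dim 5.59 and 5.54 (1.12 ± 0.11 SE, adjusted p = 0.0251). CD52, a small surface glycoprotein of leukocytes, differed by 0.92 and the sialyltransferase gene ST6GAL1 by 0.85. SLC22A4, a transporter of ergothioneine, differed by 0.97. Intracellular members of the same rank were ARAP3, a GTPase-activating protein at 8.80 and 8.72 against 7.40 and 7.36 (1.38 ± 0.06 SE, adjusted p = 0.00363), PRICKLE1 of planar cell polarity (0.87) and the exonuclease gene ERI1 (0.86). The other probe set of ARAP3 differed by 0.01. HMCN1, an extracellular matrix protein, differed by 0.91 from a dim DMSO level.

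Of the genes with lower levels, AQP3 had the largest difference. This channel for water and glycerol was at 8.87 and 8.82 under ATRA and at 10.10 and 10.20 under DMSO. The groups lay more than 1 log2 unit apart, and the difference was -1.30 ± 0.06 (SE, adjusted p = 0.00363), which left 0.405 of the DMSO signal. Its other probe sets differed by -0.35 and -0.41. AQP10, a second aquaglyceroporin, was at 7.44 on both ATRA arrays and at 8.02 and 8.12 under DMSO (-0.63 ± 0.06 SE, adjusted p = 0.0311). These and SLC22A4, which was higher, were the called genes among 12 transporters and aquaporins, against 0.668% called of all genes. TRDN, named because it is the other gene that was lower by over 1 log2 unit (-1.03), was dim on every array.

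KIT, the stem cell factor receptor, was at 6.60 and 6.27 under DMSO and fell into the dim range under ATRA, at 5.61 and 5.32 (-0.97 ± 0.07 SE, adjusted p = 0.0154). LMO2, a bridging protein of the erythroid transcription factor complex, was at 10.15 and 10.03 against 10.52 and 10.56 (-0.45 ± 0.05 SE, adjusted p = 0.0407). These were the 2 genes lower, with 0 higher, among 20 progenitor and stem cell genes, whose median was 0.01. Over all genes 0.157% were lower and 0.511% higher. GATA2, a further progenitor factor, differed by -0.27 (adjusted p = 0.11), and MYB and MYC by 0.06 and 0.03.

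ID1 and ID2, which block basic helix-loop-helix factors and are targets of bone morphogenetic protein signalling, were both lower. ID1 was at 7.22 and 7.15 under ATRA and at 7.81 and 7.74 under DMSO (-0.59 ± 0.06 SE, adjusted p = 0.034). ID2 was at 6.92 and 7.06 against 7.46 and 7.65 (-0.56 ± 0.06 SE, adjusted p = 0.0394), while ID3 was dim. Against 0.157% lower and 0.511% higher of all genes, the same list of 22 genes held 2 lower and 2 higher. The higher ones were ACVR1, a type I receptor of that pathway (0.60 ± 0.06 SE, adjusted p = 0.0297), and SKIL, a repressor of SMAD proteins (0.44 ± 0.04 SE, adjusted p = 0.0195). On the mean of all probe sets ID2 (-0.37) and SKIL (0.30) no longer passed.

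Other genes of lower level came from several lists. CDKN1C, an inhibitor of cyclin-dependent kinases, differed by -0.57 and GADD45A, a stress sensor, by -0.33. They were the 2 called of 16 cell cycle inhibitors, both lower, against 0.157% lower of all genes. The interferon-induced RSAD2 (-0.75) was lower and IFIT3 (0.64) higher among 30 interferon genes. Outside this list, the interferon-induced membrane protein genes IFITM2 (-0.34) and IFITM1 (-0.20) were called lower too, and were named after their values were seen. CMPK2 (-0.48), a neighbour of RSAD2 in the genome, was lower as well. MS4A3 (-0.59), a haematopoietic membrane protein, GAD1 (-0.59), which makes GABA, RASSF2 (-0.59), PITX1 (-0.50), TMEM158 (-0.49) and UBAC1 (-0.48) completed the genes furthest down. STAT5 targets and MAPK feedback genes gave 0 higher and 1 lower of 24, which was again ID1. Of 12 cancer-testis antigens 0 were called in limma and 0 had an unadjusted p below 0.05.

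JUN, of the AP-1 factor, was the 1 gene called among 25 immediate early genes. It was higher, at 10.68 and 10.70 against 10.03 and 10.02 (0.67 ± 0.04 SE, adjusted p = 0.00934), and its further probe sets differed by 0.68 to 0.97.

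**Figure D3:**
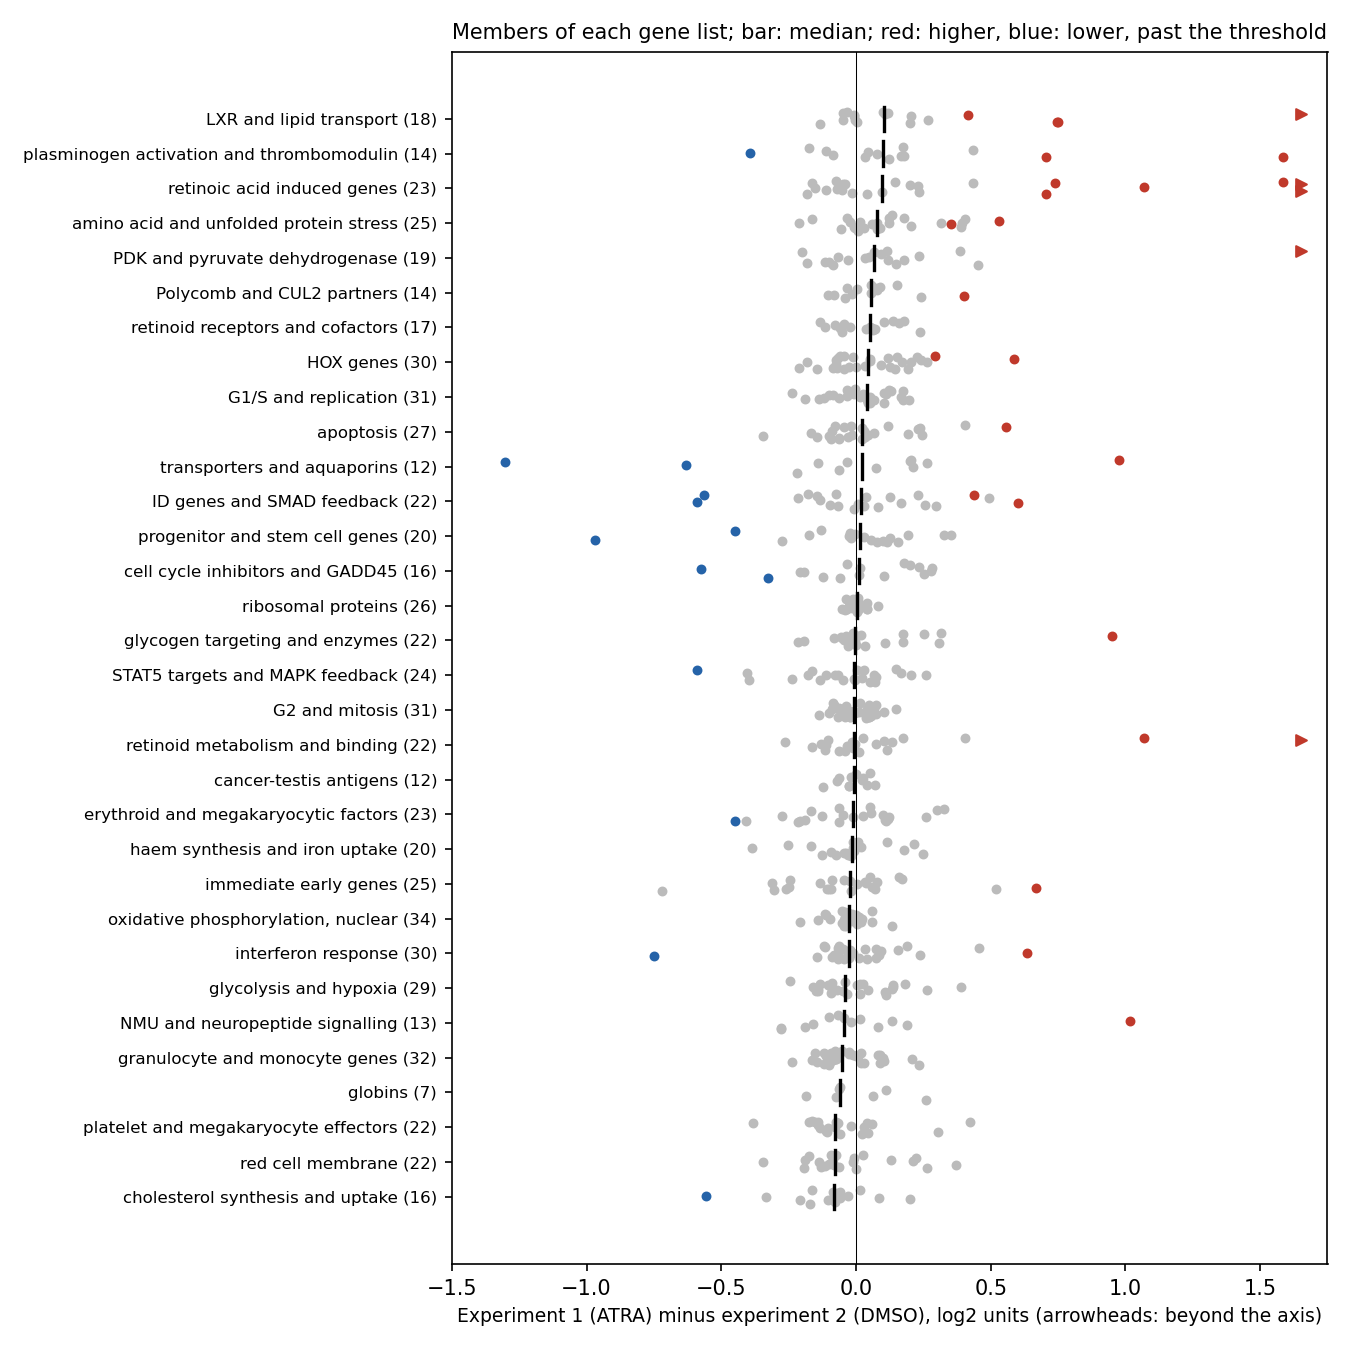
Difference of each measured list member, ATRA minus DMSO in log2 units (horizontal axis), for each gene list with the number measured in brackets; the bar is the list median, red and blue points passed the test, and arrowheads lie beyond the axis. Medians lie between -0.08 and 0.10, and some members that did not pass, such as CD69 at -0.72, lie as far from 0 as called ones.

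Of 23 erythroid and megakaryocytic factors 0 were higher and 1, LMO2, was lower, and LMO2 was likewise the 1 lower gene of the K562 markers. KLF1, the erythroid master regulator, differed by -0.22 (adjusted p = 0.162). Other lists of lineage and maturation held no called gene, against 0.668% called of all genes. An unadjusted p below 0.05 was seen for 14.9% of all genes. Globins gave 0 of 7 in limma, with 3 at an unadjusted p below 0.05, and a median of -0.06. HBZ differed by -0.18 (adjusted p = 0.0845), HBE1 by 0.11 (adjusted p = 0.233) and HBD by 0.26 (adjusted p = 0.124). Genes of haem synthesis and iron uptake gave 0 of 20, with 6 at an unadjusted p below 0.05, and red cell membrane genes 0 of 22, with 7. ALAS2, the erythroid enzyme that starts haem synthesis, differed by -0.39 (adjusted p = 0.104) and RHAG, a red cell membrane channel, by -0.19 (adjusted p = 0.0759). On the mean of its probe sets RHAG differed by -0.28 and passed (adjusted p = 0.033).

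Platelet and megakaryocyte genes gave 0 of 22, with 3 at an unadjusted p below 0.05 and a median of -0.08, and 11 of them were dim in both treatments. Granulocyte and monocyte genes gave 0 of 32, with 5 at an unadjusted p below 0.05 and a median of -0.05. Of these 16 were dim in both treatments, among them MPO and ELANE, enzymes of granules. LYZ, lysozyme, was at 9.92 and 9.70 under ATRA and at 9.64 and 9.57 under DMSO, a difference of 0.21 with an interval of 0.07 to 0.34 (adjusted p = 0.187).

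Genes of growth gave no call either, and at a share of 0.668% over all genes lists of this size can hold none. In limma, replication genes gave 0 of 31, with 9 at an unadjusted p below 0.05, 6 of them above 0 and 3 below. G2 and mitosis genes gave 0 of 31, with 3. Of all genes 14.9% had such a p. Ribosomal protein genes gave 0 of 26, with 3, and nuclear genes of oxidative phosphorylation 0 of 34, with 6. Their medians were 0.04, -0.01, 0.00 and -0.03, close to that of all genes (-0.01). Single differences were small, for example 0.15 for the mitotic kinase gene BUB1 and 0.18 for the replication licensing gene CDT1, neither of which passed. CCND1, cyclin D1, differed by -0.40 (adjusted p = 0.128).

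Glycolysis and hypoxia genes gave 0 of 29 past the threshold in limma, although 16 had an unadjusted p below 0.05, 6 of them above 0 and 10 below, against 14.9% of all genes. TPI1, of glycolysis, differed by -0.16 (adjusted p = 0.0822) and BNIP3, of mitochondrial clearance, by -0.24 (adjusted p = 0.0999). Stress genes of the amino acid and unfolded protein responses had a median of 0.08. Against 0.511% higher and 0.157% lower of all genes, 2 of the 25 were higher and 0 lower. They were SLC7A11, the cystine importer (0.53 ± 0.06 SE, adjusted p = 0.039), and HSPA5, the main chaperone of the endoplasmic reticulum (0.35 ± 0.04 SE, adjusted p = 0.0327). APAF1, the core of the apoptosome, was the 1 called of 27 apoptosis genes, at 0.56, and on the mean of all its probe sets (0.16) it did not pass. JARID2, a Polycomb partner, was the 1 called of 14 (0.40 ± 0.05 SE, adjusted p = 0.0414). On the mean of all probe sets SLC7A11 (0.37), HSPA5 (0.27) and JARID2 (0.25) missed the test too.

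Markers of other cell types did not differ in a way that passed. In limma 0 of 16 for T and NK lymphocytes, 0 of 11 for B lymphocytes, 0 of 13 for stroma and 0 of 12 for epithelium were called, with 1, 0, 2 and 3 at an unadjusted p below 0.05. Dim in both treatments were 9, 7, 7 and 4 of them. The summed linear signal of the T and NK markers was 2247 and 2239 under ATRA and 2422 and 2309.8 under DMSO, and that of the epithelial markers 10609 and 10775 against 10498 and 10054. CD3D of T cells (10.42 to 10.55) and EPCAM of epithelium (11.28 to 11.52) were bright on all 4 arrays.

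A group of 26 genes passed in the test as reported and in 8 other settings of it, grouped in this way after the counts were seen. The 8 settings were no covariate, probe sets averaged or chosen by the 4 arrays, quantile normalization, centring, dim genes left out, genes with tied differences left out, and 6 arrays with the experiment as a factor. Of the 132 genes, 36 passed with no covariate and 80 with probe sets averaged, and 120 to 132 in each of the rest. Those first 2 settings thus did most of the narrowing. Without the intensity trend, with the random block or without 1 array, 3, 2 and 0 genes passed instead. The 26 included CYP26A1, ABCA1, PDK4, NMU, ARAP3, DHRS3, SLC22A4, SCD, ACSL1, ACACA, JUN and the lower AQP3. They also held genes that the rule did not take, given because they passed in these 8 settings. Of these, SLC2A12, a glucose transporter, differed by 0.82, FRAT1, which binds the kinase GSK3, by 0.77, GALM, a sugar mutarotase, by 0.71, and PIK3CG, a catalytic subunit of PI3-kinase, by 0.67. BHLHE40, a clock-linked repressor, differed by 0.62, IDH1, an isocitrate dehydrogenase, by 0.56, SERPINB1, an inhibitor of neutrophil proteases, by 0.49 and ATG5, of autophagy, by 0.42. CTSH, a cathepsin, was the other lower gene among the 26, at -0.36. By contrast, on the mean of all probe sets of a gene, THBD (0.39), TRIB1 (0.33), HOXB3 (0.25), IFIT3 (0.43), CDKN1C (-0.41) and ST6GAL1 (0.37) missed the test, and ARAP3 (0.70) and AQP3 (-0.69) passed with smaller differences.

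Experiment 3 gave a second set of ATRA arrays, compared with the same DMSO arrays, so its values are set beside those of experiment 1 and are not independent of them. Its arrays stood apart, with correlations of 0.979 to 0.982 with the others across probe sets, against 0.997 to 0.998 among the arrays of experiments 1 and 2. The actin probe set at the 3' end exceeded that at the 5' end by 2.98 and 3.36 log2 units there, where the arrays of experiments 1 and 2 had gaps of 0.63 to 0.92. GAPDH had gaps of 1.20 and 0.74 in experiment 3 and of 0.03 to 0.08 elsewhere. Their part in the differences of experiment 3 was not tested.

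CYP26A1 differed from DMSO by 6.29 in experiment 3, against 5.60 in experiment 1, and PDK4 by 3.12, against 2.73. NMU differed by 0.99, against 1.02, and ABCA1 by 2.02, against 3.58. For these genes every ATRA array of either experiment lay above both DMSO arrays. PLAT (1.38), ARAP3 (1.27), CCL26 (1.72), DHRS3 (1.40), SLC22A4 (1.80), PPP1R3B (0.98), SCD (0.85) and SREBF1 (0.88) were above 0 in experiment 3 as well. The other SCD probe sets lay much closer to DMSO in experiment 3, one of them at 7.33 and 7.46 against 7.25 and 7.21. ACVR1 (0.08) and SKIL (0.07) lay near 0 there, and so did PLIN2 (0.12).

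On the lower side, KIT differed by -0.98 in experiment 3 and AQP3 by -0.93. ID1 (-1.22), ID2 (-1.36), GAD1 (-1.23) and PITX1 (-1.44) were further from 0 than in experiment 1. AQP10 (-0.21), CDKN1C (-0.10) and UBAC1 (-0.14) were nearer to 0. Other probe sets of these genes could differ. A CDKN1C one was at 6.72 and 6.80 in experiment 3, 7.15 and 7.08 in experiment 1 and 7.58 and 7.61 under DMSO. The second PITX1 probe set, at 7.86 and 7.87 in experiment 3, was nearer to DMSO (8.02 and 8.08) than in experiment 1 (7.60 and 7.67). A GAD1 probe set was nearer as well. On the probe sets used, the other sign was seen for CD52 (-0.22), PRICKLE1 (-0.07), HMCN1 (-1.45), MSMO1 (0.49) and HOXB2 (-0.11). For CD52 it held in the siRNA pair (-0.48) and not in the scrambled pair (0.05). The other PRICKLE1 probe sets stayed above both DMSO arrays. HMCN1 was at 3.88 and 3.62 on the arrays of experiment 3, below its dim DMSO level of 5.33 and 5.08.

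**Figure D4:**
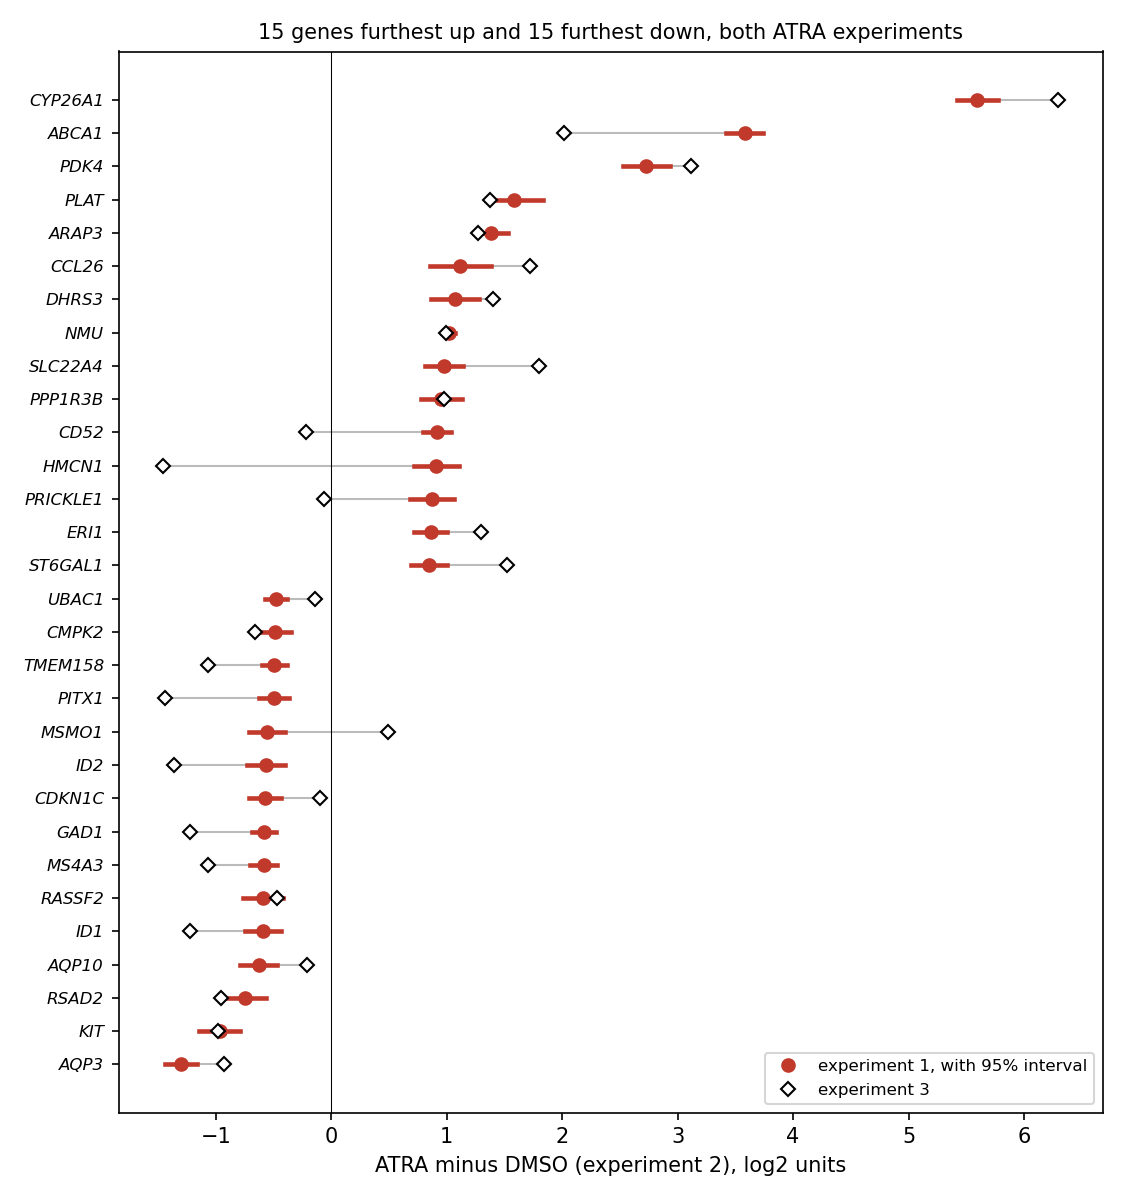
Difference from DMSO (experiment 2) in log2 units (horizontal axis) for the genes furthest up and furthest down among those that passed, in experiment 1 (filled, with the 95% interval) and in experiment 3 (open). The same DMSO arrays serve both. On the probe sets used, CD52, HMCN1, PRICKLE1 and MSMO1 have opposite signs in the 2 experiments, while the other PRICKLE1 probe sets do not. For CD52 this holds in the siRNA pair only.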

How the data were processed

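Affymetrix Human Genome U133 Plus 2.0 arrays measured total RNA. The deposited table holds log2 expression that the authors normalized by RMA with BRB-ArrayTools, as the design text of the series states. For both, version and settings are not stated there. Array medians lay between 5.96 and 6.02, no array was identical to another, although each pair shared exactly equal values at 1731 to 3331 probe sets, and the number of arrays limits the precision.

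Of 54675 probe sets, 62 were controls, and GEO's platform annotation, which can be old, gave 41091 of them 1 gene, 1801 several and 11721 no entry. Probe sets with several genes or no entry name no gene here. For each of 19775 genes the brightest probe set, by its mean on all 6 arrays, was used, and 19734 of the genes matched a RefSeq identifier. No filter on dim genes was used.

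The 4 arrays were fitted with limma 3.58.1 in R 4.3.3 (lmFit, eBayes with an intensity trend), with treatment and transfected RNA as terms. This leaves 1 residual degree of freedom per gene, and moderation added 4.35. Each SE given is the moderated one. P-values are two-sided and adjusted by Benjamini-Hochberg over all genes, with a threshold of 0.05. The fit was tested on simulated data.

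The 37 gene lists (731 distinct genes measured) are described by counts and medians. The members, lists and comparisons were chosen with earlier results of these data known. Named were CYP26A1, ABCA1, PDK4, NMU and PRAME, then, per direction, the 15 largest differences among genes that passed, kept 1 sign in both pairs and were not dim in the higher treatment. From each list the 4 members of smallest p followed at most, and a selection of them is given. Other genes were named after their values were seen. The labels share no replicate number between ATRA and DMSO, so no paired test by number was possible. The alternatives changed the covariate, the trend, the filter, the probe sets, the normalization and the arrays used.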

Additional observations from a re-analysis of the deposited data

Results flagged for a closer look

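For some named genes that had passed in experiment 1 against DMSO, both arrays of experiment 3 lay on the opposite side of both DMSO arrays. HMCN1 differed by -1.45, MSMO1 by 0.49 and HOXB2 by -0.11. The PRICKLE1 probe set used was also opposite in both matched pairs, by -0.026 and -0.11, but its arrays overlapped those of DMSO. The other PRICKLE1 probe sets lay above both DMSO arrays in experiment 3, one of them at 7.63 and 7.47 against 7.05 and 7.01. The difference between experiments 1 and 3 was not tested, and experiment 3 had the larger 3' to 5' control gaps.

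When all probe sets were fitted as features, 23 probe sets that name no gene or several passed the threshold. Their differences ran from -0.82 to 2.59, and 14 of them were above 0.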

How the results depend on the processing

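The count of 132 genes depended on the setting. It was 36 without the RNA as a covariate, 3 without the intensity trend, 958 with dim genes left out, 1330 after a further quantile normalization, 1362 with arrays centred on their medians and 264 with 6 arrays and the experiment as a factor. It was 6777 for experiment 3 against experiment 2, and 8 by a fold rule of 1 log2 unit in both pairs. Leaving out 69 genes with exactly equal differences in both pairs, of which 55 were dim, raised the added degrees of freedom from 4.35 to 15.77 and the count to 1164, a setting chosen after seeing the data. The added degrees of freedom were 11.96 after the quantile normalization and 37.45 after centring. Their part in those counts was not tested. With the tied genes left out or kept, the threshold was the same. With the experiment as a random replicate block (correlation 0.57) the count was 2. Without any 1 of the 4 arrays it was 0. Such a fit has 1 residual degree of freedom and no covariate, assumes that the lone array varies like the others, and gave a smallest adjusted p of 0.338 to 0.522. With the mean of all probe sets (108), the probe set chosen by the 4 arrays (126) or all probe sets (97), it stayed within 1.5 times. Of the 132 genes, these fits called 80, 125 and 57, in that order, the last by any of their probe sets. All 132 genes were among those called after quantile normalization, centring or leaving out the tied genes, and 130 with dim genes left out.

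Of 56 named genes that passed, 19 passed without the covariate, 3 without the trend, 37 on the mean of probe sets and 45 in experiment 3, of which 2 (HMCN1 and MSMO1) did so with the opposite sign. Signs changed in experiment 3 for PRAME (-0.16), CD52 (-0.22), HMCN1 (-1.45), PRICKLE1 (-0.066), MSMO1 (0.49), ALDH1A2 (0.32), RARA (0.0074), PDK1 (0.55), HBE1 (-0.47) and HOXB2 (-0.11), and with the block for PRAME (-0.080), HMCN1 (-0.27), ALDH1A2 (0.028), PDK1 (0.23) and HBE1 (-0.18). Leaving out 1 array gave -0.44 to 0.44 for PRAME, -0.23 to 0 for RARA, -0.11 to 0.012 for RARB, -0.22 to 0.024 for PDK1 and -0.25 to 0.077 for PDK2. These signs are those of the probe set used for each gene, and other PRICKLE1 probe sets kept theirs in experiment 3. CD52 changed sign there in the siRNA pair only. The cause of the changes was not tested.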
